A study of Mus musculus with 4 samples.

Results

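A set of 9 genes of the extracellular matrix, its crosslinking and the plasminogen system was followed in macrophages, namely Lox, Fn1, Thbs1, Spp1, Vcan, Plau, Plaur, Serpinb2 and Tgm2. The set was built around Lox, and the members were chosen by its rise in CPM in the anti-Act1 libraries of these same data, after which matrix, crosslinking and plasminogen genes that macrophages use were added. All 9 members were found among the 21878 genes listed. The macrophages were grown from bone marrow of C57BL/6 mice aged 8 weeks, and all of them shared a well with MC38, a mouse colon cancer cell line, which sat across a porous insert for 48 hours according to the labels. The study's own text differs from the labels here, with a shorter coculture in a figure legend and an age range that reaches above this age in the methods. The 2 genotypes were compared, with 2 libraries each. WT macrophages came from wildtype mice, and anti-Act1 macrophages from mice with a knockdown of Act1 in macrophages, for which the sources used here give neither the construct nor its promoter. Act1 is an adaptor protein of IL-17 receptor signalling that is encoded by Traf3ip2. Every library came from macrophages cultured with MC38, so a coculture effect cannot be told from these data.

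Macrophages both build and cut the matrix around them. They secrete glycoproteins such as fibronectin, thrombospondin-1 and osteopontin, and enzymes of the LOX and transglutaminase families join matrix proteins to each other. In the plasminogen system, urokinase bound to its receptor on the cell surface turns plasminogen into plasmin, a protease that degrades fibrin and matrix, and serpins block urokinase.

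Each library held 55435063 to 75062945 counts, and the values below are CPM, counts relative to the library total with the TMM factor applied. A count of 0 allows a level of up to 0.0400 to 0.0541 CPM, the level of 3 counts per library, which covers counting error only. Traf3ip2 was at 7.26 ± 0.39 CPM (SD, n = 2) in WT and at 8.74 ± 1.27 CPM (SD, n = 2) in anti-Act1, with an edgeR adjusted p = 0.117. The targeted transcript was thus not reduced in these libraries, and each direction given here rests on the labels. The study reported lower Act1 expression in bone marrow-derived macrophages of anti-Act1 mice. The legend of that measurement does not say whether RNA or protein was measured. Without anti-Act1 replicate 2, Traf3ip2 was higher by 0.41 on the log2 scale and passed the test (edgeR adjusted p = 0.0343). Ddx3y, a gene of the Y chromosome, was at 92.9 ± 5.74 CPM (SD, n = 2) in WT and had 0 counts in both anti-Act1 libraries. Its presence followed genotype in every library, so a difference in sex cannot be told apart from one in genotype. The part of sex in the results was not tested. All 8 macrophage markers passed the filter on low counts, with sums of 24573 to 25554 CPM in WT and 25418 to 26257 CPM in anti-Act1. The epithelial markers Krt8, Krt18, Cldn3 and Cldn4 had 0 counts in every library, and the 8 markers of that list summed to at most 0.464 CPM. Endothelial markers summed to 107 to 113 CPM in WT and 110.5 to 114 CPM in anti-Act1, and neutrophil markers to 5.78 to 6.04 CPM and 6.37 to 7.16 CPM.

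Among the 8 members other than Lox, Serpinb2 was higher in anti-Act1 macrophages, and Plau, Spp1, Thbs1 and Vcan were lower. Fn1, Plaur and Tgm2 did not pass the test (edgeR quasi-likelihood test, two-sided, Benjamini-Hochberg adjusted p under 0.05 over 12494 genes). All 9 members passed the filter on low counts. The count of 1 higher and 4 lower stood beside 10.9% of all tested genes called higher and 9.76% called lower in the same comparison, from which the set was chosen. CPM values of the 2 groups did not overlap for 7 of these 8 genes, against 57.1% of all genes tested. Their median difference was -0.23 on the log2 scale, beside -0.0046 over all genes tested. The 9 members took 0.916% and 0.964% of the counts in the WT libraries and 0.716% and 0.731% in the anti-Act1 libraries, most of it Thbs1.

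**Figure D1:**
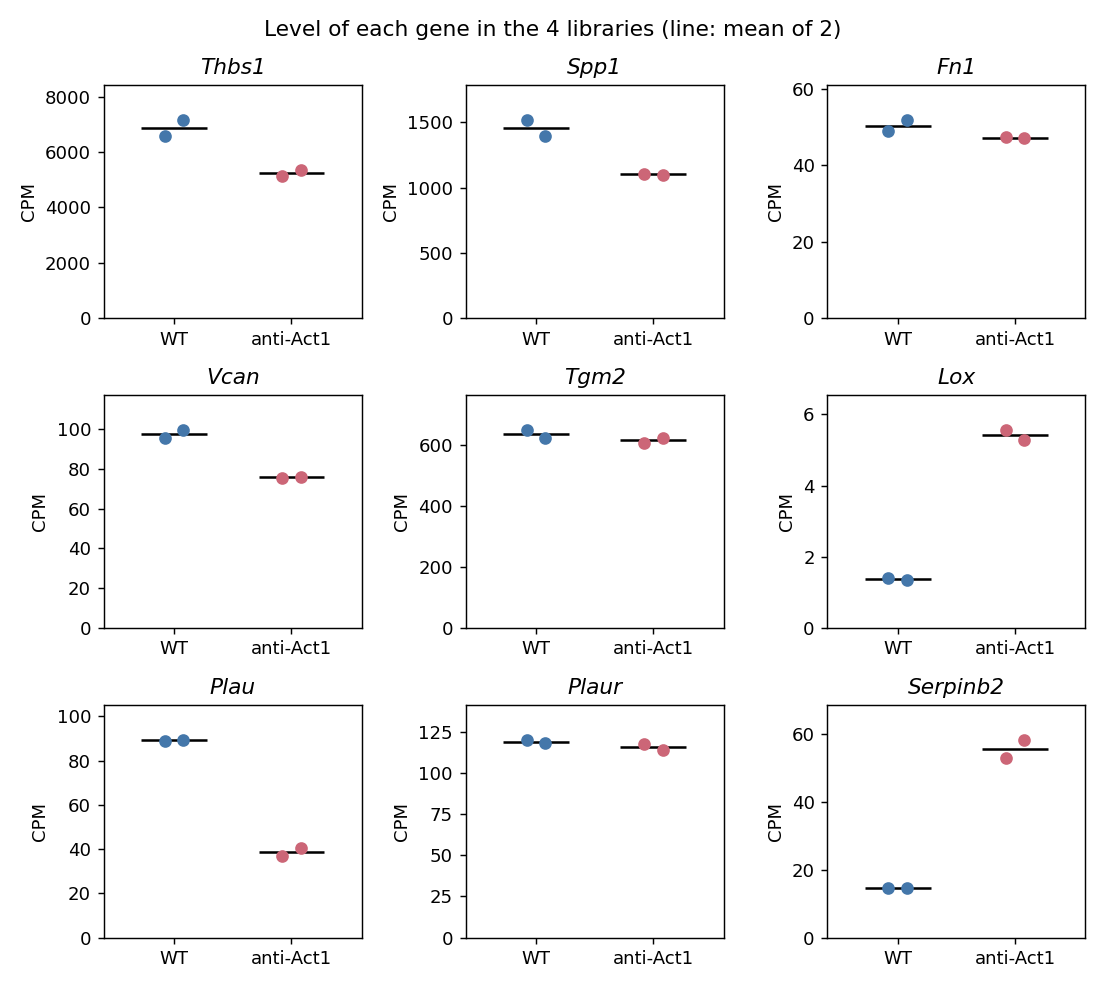
Level of each of the 9 genes in CPM on linear axes from 0. Each point is 1 library, blue for WT and red for anti-Act1, and the line is the mean of 2. Points of the groups overlap in Tgm2 only, and Lox and Serpinb2 are higher in both anti-Act1 libraries.

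Lox encodes lysyl oxidase, the secreted copper enzyme that oxidises lysines of collagen and elastin and so starts their crosslinking. It was at 1.41 and 1.36 CPM in the WT libraries, from 91 and 103 counts. In the anti-Act1 libraries it was at 5.55 and 5.29 CPM, from 343 and 289 counts. Both anti-Act1 libraries were thus above both WT libraries. On the log2 scale this was a difference of 1.97 (SE 0.18), the value by which the set was chosen, so no test is given. Among the genes that passed the filter, 41 had a log2 fold change at least this high, Lox itself included. The size depends on the scale, since Lox is low: on log2(FPKM + 1) the difference was 0.73. Fibroblast markers, 8 genes of which 2 passed the filter, summed to 1.53 to 1.75 CPM in WT and 2.0 to 2.40 CPM in anti-Act1, with Lum at 0 counts. Their part in the level of Lox was not tested, and a change in the number of some cells cannot be told apart from a change of RNA per cell in such bulk samples.

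Of the 4 other genes of the LOX family, 2 passed the filter, and 1 of these, Loxl3, was called lower. It was at 20.1 and 19.3 CPM in WT and at 13.5 and 14.4 CPM in anti-Act1, which is -0.50 on the log2 scale (SE 0.08, edgeR adjusted p = 9.46e-06). Loxl1 and Loxl2 stayed below the filter, with at most 4 and 16 counts in a library. Loxl4 had 9 and 12 counts in WT and 12 and 6 in anti-Act1 and did not pass. By the Euclidean distance of log2(CPM + 0.1) values, centred on the mean of each gene over the 4 libraries, the pattern closest to that of Lox was that of Acacb, an acetyl-CoA carboxylase, at a distance of 0.067. Next came Serpinb2 at 0.150, the scavenger receptor Marco at 0.153, the cytokine Lif at 0.174 and the arginine synthesis gene Ass1 at 0.187. This order rests on the Lox values by which the set was chosen, so it is a description only. Acacb was at 0.557 and 0.540 CPM in WT and at 2.25 and 2.27 CPM in anti-Act1. Marco went from 0.573 and 0.593 CPM in WT to 2.61 and 2.69 CPM in anti-Act1.

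In the plasminogen system, the activator and one of its inhibitors changed in opposite directions, and the receptor did not pass the test. Plau encodes urokinase, the serine protease that activates plasminogen (chromosome 14, 20836660 to 20843385, GRCm38). It was at 89.0 and 89.3 CPM in WT and at 36.7 and 40.6 CPM in anti-Act1. Both anti-Act1 libraries lay far below both WT libraries, at 0.434 times their level. On the log2 scale the difference was -1.21 (SE 0.06, edgeR adjusted p = 3.49e-21). Of the genes tested, 106 had a log2 fold change at least as low, Plau itself included.

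Serpinb2 encodes plasminogen activator inhibitor-2, a serpin that blocks urokinase and stays largely inside macrophages. It was at 14.5 and 14.6 CPM in WT, from 940 and 1108 counts, and at 53.1 and 58.3 CPM in anti-Act1, from 3282 and 3182 counts. Both WT libraries were alike and both anti-Act1 libraries were 3.82 times as high in the fitted fold. On the log2 scale the difference was 1.93 (SE 0.07, 95% interval 1.79 to 2.08, edgeR adjusted p = 7.47e-27). Of the genes that passed the filter, 45 had a log2 fold change at least as high, Serpinb2 itself and Lox included. Serpinb10, whose exons overlap those of Serpinb2 on the same strand, had 2 to 7 counts in a library. Plaur encodes the urokinase receptor, which is anchored to the membrane by a lipid. It was at 119.8 and 117.9 CPM in WT and at 117.3 and 113.9 CPM in anti-Act1. On the log2 scale the difference was -0.04 (SE 0.05, 95% interval -0.15 to 0.07, edgeR adjusted p = 0.664).

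The 250 bases before the start of Serpinb2 (chr1:107511173-107511422, plus strand) and of Plaur (chr7:24462233-24462482, plus strand) are shown because these 2 genes belong to the same protease system and Serpinb2 passed the test while Plaur did not. Both come from RefSeq on GRCm38.p6, and capitals mark the matches to AP-1 (TGANTCA) or TATAAA, searched on both strands.
Serpinb2: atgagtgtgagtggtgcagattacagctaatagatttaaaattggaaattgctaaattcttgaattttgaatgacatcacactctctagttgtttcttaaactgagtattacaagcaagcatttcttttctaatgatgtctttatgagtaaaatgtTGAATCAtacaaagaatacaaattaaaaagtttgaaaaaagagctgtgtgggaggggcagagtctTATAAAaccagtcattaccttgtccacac
Plaur: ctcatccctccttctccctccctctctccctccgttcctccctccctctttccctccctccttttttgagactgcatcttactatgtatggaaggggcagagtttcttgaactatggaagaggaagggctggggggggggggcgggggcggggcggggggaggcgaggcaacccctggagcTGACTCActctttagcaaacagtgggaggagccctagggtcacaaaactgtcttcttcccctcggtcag
Serpinb2 held TGAATCA 94 to 88 bases before the start and TATAAA 29 to 24 bases before it. Plaur held TGACTCA 69 to 63 bases before the start and no TATAAA. AP-1 matches occurred in 6.87% and TATAAA in 13% of the 27025 windows of that length in the table. The letters of a STAT site (TTCNNNGAA), present in 7.18% of windows, and of the NF-κB consensus, present in 7.01%, were not in either window. These are matches of letters, and binding was not measured.

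Per unit of gene length, Serpinb2 went from a small share of Plau to a level above it. The ratio of their FPKM was 0.185 in both WT libraries and 1.64 and 1.62 in the anti-Act1 libraries, 8.81 times as high. This ratio is made of values already tested above and has no test of its own. Serpine2, protease nexin-1, another inhibitor of urokinase, was at 2.06 and 2.12 CPM in WT and at 3.09 and 2.12 CPM in anti-Act1, and did not pass.

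**Figure D2:**
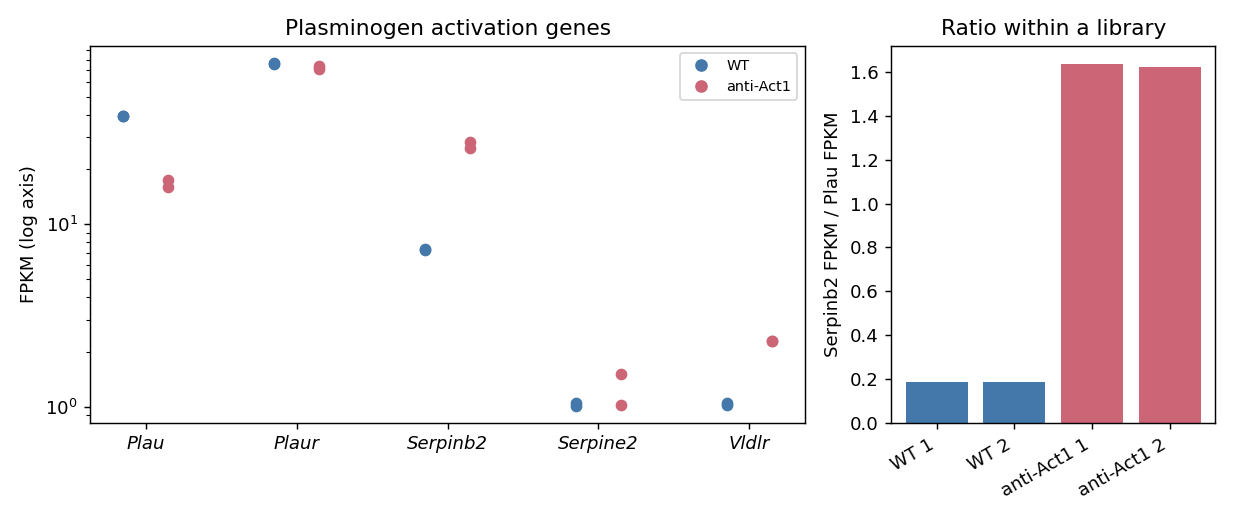
Left, FPKM on a log axis of 5 plasminogen system genes, with 1 point per library, blue for WT and red for anti-Act1; right, the Serpinb2 to Plau ratio of FPKM in each library as bars from 0. Plau is lower and Serpinb2 and Vldlr are higher in both anti-Act1 libraries, and the ratio goes from 0.185 to 1.64 and 1.62.

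Of the other genes of the plasminogen system, 15 passed the filter, and 4 of them were higher and 2 lower in anti-Act1, with a median log2 fold change of 0.10. Vldlr, a lipoprotein receptor that takes up complexes of urokinase with its inhibitors, was at 8.27 and 8.43 CPM in WT and at 18.7 and 18.8 CPM in anti-Act1 (log2 fold change 1.17, SE 0.09, edgeR adjusted p = 5.02e-14). Among the plasminogen-binding proteins, Anxa2 rose by 0.26 on the log2 scale (edgeR adjusted p = 0.000102), and its partner S100a10 differed by 0.13 and did not pass (edgeR adjusted p = 0.0732), although it did without WT replicate 1, at 0.17. Eno1, a glycolytic enzyme that also binds plasminogen, rose by 0.17 (edgeR adjusted p = 0.00739), a call that held in 9 of 14 alternatives and was lost without WT replicate 2 (0.15) or anti-Act1 replicate 2 (0.14), and its near-identical copy Eno1b makes its counts uncertain. Sorl1, a sorting receptor, fell from 74.2 and 76.4 CPM in WT to 44.4 and 46.7 CPM in anti-Act1, and Hgf, a growth factor whose precursor urokinase can cleave, fell by 0.37 on the log2 scale. Lrp1, the receptor that clears urokinase with its inhibitors, was at 1298 and 1310 CPM in WT and at 1155 and 1255 CPM in anti-Act1, with an edgeR adjusted p = 0.108. Plat, which encodes tissue plasminogen activator, had 2 to 7 counts in a library, and Plg, plasminogen itself, had 1 count over all 4 libraries.

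Among the secreted glycoproteins, Thbs1 and Spp1 were abundant and lower in anti-Act1, and Fn1 did not pass the test. Thbs1 encodes thrombospondin-1, a glycoprotein that binds CD47 and CD36 and can activate latent TGF-β (chromosome 2, 118111876 to 118127133, GRCm38). It was at 6565 and 7144 CPM in WT and at 5131 and 5357 CPM in anti-Act1. Both WT libraries lay above both anti-Act1 libraries, and by counts the gene ranked 11 and 10 among all genes in WT and 15 in both anti-Act1 libraries. On the log2 scale the difference was -0.39 (SE 0.05, 95% interval -0.49 to -0.29, edgeR adjusted p = 3.12e-08). Thbs1 is also a platelet protein: the 6 markers of megakaryocytes and platelets summed to 547 to 575 CPM in WT and 459.7 to 475 CPM in anti-Act1, almost all of it Pf4. Ppbp and Pf4, 2 of the 5 tested, were lower, and their part in the level of Thbs1 was not tested.

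Spp1 encodes osteopontin, a phosphorylated glycoprotein that binds integrins and CD44. It was at 1515 and 1396 CPM in WT and at 1107 and 1094 CPM in anti-Act1. The groups did not overlap, and on the log2 scale they differed by -0.40 (SE 0.05, 95% interval -0.50 to -0.30, edgeR adjusted p = 1.66e-08). Fn1 encodes fibronectin, the scaffold that cells grip through integrins (chromosome 1, 71585520 to 71653200, GRCm38). It was at 48.9 and 51.8 CPM in WT and at 47.3 and 47.1 CPM in anti-Act1. The WT libraries were slightly higher, a difference of -0.09 on the log2 scale (SE 0.06, 95% interval -0.22 to 0.03, edgeR adjusted p = 0.321).

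Of 55 other matrix glycoproteins, 21 passed the filter, of which 2 were higher and 2 lower in anti-Act1, with a median log2 fold change of 0.07. Mfge8, a bridge between dying cells and the integrins of the phagocyte, was at 735 and 734 CPM in WT and at 1182 and 1302 CPM in anti-Act1 (log2 fold change 0.76, SE 0.05, edgeR adjusted p = 1.92e-16). Agrn, the heparan sulfate proteoglycan agrin, rose by 0.30. Tgfbi, a TGF-β-induced adhesion protein, was at 52.4 and 56.3 CPM in WT and at 26.9 and 29.7 CPM in anti-Act1 (log2 fold change -0.94, SE 0.07, edgeR adjusted p = 6.85e-16). The other one that was lower, Lama3, had a mean under 1 CPM, and its call held in 7 of 14 alternatives. Ecm1 and Emilin2, at 266 and 462 CPM in WT on average, did not pass, with edgeR adjusted p-values of 0.407 and 0.221.

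Vcan encodes versican, a large chondroitin sulfate proteoglycan that binds hyaluronan and TLR2. It was at 95.7 and 99.5 CPM in WT and at 75.3 and 76.2 CPM in anti-Act1. The groups did not overlap, and on the log2 scale they differed by -0.37 (SE 0.06, 95% interval -0.48 to -0.26, edgeR adjusted p = 9.48e-07). Of 16 other genes of proteoglycans and hyaluronan that passed the filter, 7 were higher and 1 lower, with a median log2 fold change of 0.18. Sdc1, a transmembrane heparan sulfate proteoglycan, was at 516 and 504 CPM in WT and at 799.9 and 807 CPM in anti-Act1 (log2 fold change 0.66, SE 0.05, edgeR adjusted p = 8.85e-15). Gpc1, a lipid-anchored one, rose by 0.67 on the log2 scale, Ugdh, which makes the UDP-glucuronate used for these chains, by 0.52, and Sdc4 by 0.33. Srgn and Sdc3 rose by 0.22 and 0.13, and the call of Sdc3 held in 5 of 14 alternatives and was lost without any 1 of the 4 libraries (0.11 to 0.16). The call of Srgn was lost without anti-Act1 replicate 1 (0.17). Hyal1, a hyaluronan-degrading enzyme, was the one that fell, by 0.28, a call that was lost without WT replicate 1 (-0.20).

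The 250 bases before Spp1 (chr5:104434861-104435110, plus strand) and Vcan (chr13:89742513-89742762, minus strand) from RefSeq on GRCm38.p6 are shown as those of 2 members that were lower, with the same motifs searched.
Spp1: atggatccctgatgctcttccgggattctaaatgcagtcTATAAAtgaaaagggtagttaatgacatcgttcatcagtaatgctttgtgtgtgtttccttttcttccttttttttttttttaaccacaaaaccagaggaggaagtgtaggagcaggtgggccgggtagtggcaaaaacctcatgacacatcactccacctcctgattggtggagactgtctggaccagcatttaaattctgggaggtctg
Vcan: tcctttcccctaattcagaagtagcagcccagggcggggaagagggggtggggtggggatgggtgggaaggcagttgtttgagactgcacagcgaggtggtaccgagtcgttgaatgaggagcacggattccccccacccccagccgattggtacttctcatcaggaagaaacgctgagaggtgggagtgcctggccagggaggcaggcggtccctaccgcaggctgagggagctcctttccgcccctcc
Spp1 held TATAAA 211 to 206 bases before the start, in capitals, and Vcan held none of the 4 motifs. Neither window held the AP-1, STAT or NF-κB letters.

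Proteases of the ADAMTS family, some of which cut versican, were followed with HTRA1. Of 12 ADAMTS and HTRA1 genes, 5 passed the filter, and 4 of these were higher and 1 lower, with a median log2 fold change of 1.43. Adamts1, a protease that cleaves versican, was at 0.898 and 0.856 CPM in WT and at 2.95 and 3.19 CPM in anti-Act1 (log2 fold change 1.80, SE 0.24, edgeR adjusted p = 4.38e-08). Htra1, a secreted serine protease, rose by 0.56, and Adamts10 fell by 0.44 on the same scale. The other 2 that were higher, Adamts14 and Adamts15, were below 1 CPM on average, and each call held in 6 of 14 alternatives.

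Tgm2 encodes transglutaminase 2, which joins glutamine and lysine side chains of proteins such as fibronectin (chromosome 2, 158116402 to 158146436, GRCm38). It was at 648 and 622 CPM in WT and at 605 and 625 CPM in anti-Act1, and the groups overlapped. On the log2 scale the difference was -0.05 (SE 0.05, 95% interval -0.15 to 0.05, edgeR adjusted p = 0.582). Exons of Rprd1b overlap it on the opposite strand, with 1469 to 2297 counts against 34113 to 47237 for Tgm2, and whether the counting used strand is not given in the sources used here. Of 17 other crosslinking and collagen-modifying genes that passed the filter, 7 were higher and 1 lower, with a median log2 fold change of 0.21. F13a1, the coagulation factor XIII transglutaminase, was at 139 and 138 CPM in WT and at 85.1 and 85.8 CPM in anti-Act1 (log2 fold change -0.69, SE 0.05, edgeR adjusted p = 9.51e-15). Tgm1, another transglutaminase, rose by 0.34, and its call held in 10 of 14 alternatives and was lost without WT replicate 2 (0.25) or anti-Act1 replicate 1 (0.28). Plod2, a lysyl hydroxylase, rose by 0.50, and P4ha2 and P4hb, subunits of prolyl 4-hydroxylase, rose by 0.49 and 0.28. Crtap, Plod3 and P4ha1 rose by 0.22, 0.21 and 0.17, calls that held in 12, 12 and 11 of 14 alternatives. Without anti-Act1 replicate 2 all 3 calls were lost (0.16, 0.14 and 0.18), and that of P4ha1 also without anti-Act1 replicate 1 (0.17). The hydroxylases act on collagen, and of 27 collagen genes 7 passed the filter, of which 1 passed the test. This was Col18a1, at 24.9 and 26.9 CPM in WT and 40.2 and 38.2 CPM in anti-Act1 (log2 fold change 0.60, SE 0.07, edgeR adjusted p = 1.70e-09).

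Receptors and partners of the members split evenly, with 8 higher, 8 lower and 8 not passing among the 24 tested, and a median log2 fold change of -0.04. Among the integrins, Itgb3, a subunit of the osteopontin receptor, rose by 0.44, and Itga4, Itga9 and Itgb5 fell by 0.32, 0.31 and 0.27. Without WT replicate 2 the difference of Itga4 was -0.20, and it still passed. Cd44, which binds osteopontin and hyaluronan, was at 651 and 715 CPM in WT and at 584 and 571 CPM in anti-Act1 (log2 fold change -0.24, SE 0.05, edgeR adjusted p = 0.000372). Cd47, a thrombospondin-1 receptor, was at 290.0 and 295 CPM in WT and at 333 and 331 CPM in anti-Act1 (log2 fold change 0.18, SE 0.05, edgeR adjusted p = 0.00563), a call that held in 11 of 14 alternatives and was lost without either anti-Act1 library (0.18 and 0.19). Tlr2, which binds versican, rose by 0.45, and the formyl peptide receptors Fpr2 and Fpr1, which work with the urokinase receptor, rose by 0.59 and 0.42. Mrc1, the mannose receptor that takes up collagen, was at 399 and 422 CPM in WT and at 265 CPM in both anti-Act1 libraries (log2 fold change -0.63, SE 0.05, edgeR adjusted p = 5.57e-14). Of 15 TGF-β genes tested, 2 were higher and 3 lower, with a median of -0.0041. Eng and Ltbp3 rose by 0.19 and 0.15, calls that held in 8 and 4 of 14 alternatives, and Tgfbr1, Nrros and Tgfbr2 fell by 0.20, 0.19 and 0.17, in 11, 13 and 11 of 14. Without WT replicate 1 the call of Eng was lost (0.13), and without WT replicate 2 those of Ltbp3 (0.14), Tgfbr1 (-0.16) and Tgfbr2 (-0.15). Those of Ltbp3 (0.18), Nrros (-0.17) and Tgfbr2 (-0.15) were lost without anti-Act1 replicate 1, and those of Eng (0.15), Ltbp3 (0.12), Tgfbr1 (-0.20) and Tgfbr2 (-0.19) without anti-Act1 replicate 2.

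Over all these lists, 228 genes other than the members were named, 222 were found and 120 passed the filter. Of these, 34 were higher (28.3%) and 19 lower (15.8%), and 67 did not pass, with a median log2 fold change of 0.07. Over all genes tested, 10.9% were higher and 9.76% lower, and the counts of each list above stand beside the same shares. The lists were written with earlier results of these data known.

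**Figure D3:**
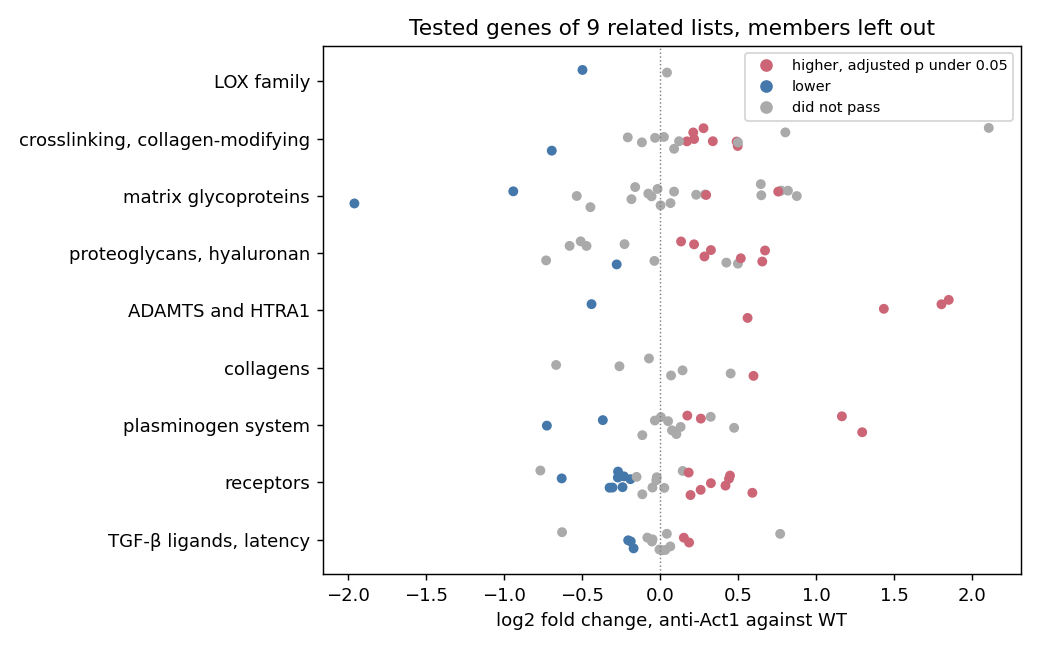
Log2 fold change, anti-Act1 against WT, of each tested gene of 9 lists, with 1 point per gene, red for higher and blue for lower at an adjusted p under 0.05 and grey for genes that did not pass; the vertical position within a list is arbitrary. Of 24 receptor genes 8 are red and 8 blue, and of 16 proteoglycan and hyaluronan genes 7 are red and 1 is blue.

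Levels can be compared between genes per unit of length (FPKM). Thbs1 was the highest, at 1130 and 1235 FPKM in WT and at 875 and 902 FPKM in anti-Act1. Spp1 came next, at 1044 and 966 FPKM in WT and at 756 and 738 FPKM in anti-Act1, and over the 4 libraries the ranges of the pair overlapped. The ratio of Thbs1 to Spp1 was 1.08 and 1.28 in WT and 1.16 and 1.22 in anti-Act1, so the groups overlapped. Tgm2 followed at 170.1 to 184 FPKM and Plaur at 71.2 to 76.5 FPKM, with no overlap with their neighbours. In WT, Plau took the fifth place with 39.2 and 39.5 FPKM, Vcan the sixth with 12.1 and 12.6 FPKM and Serpinb2 the seventh with 7.25 and 7.31 FPKM. In anti-Act1, Serpinb2 took the fifth place with 26.2 and 28.4 FPKM, Plau the sixth with 16.0 and 17.5 FPKM and Vcan the seventh with 9.43 and 9.42 FPKM. Fn1 was at 5.82 to 6.56 FPKM and Lox was the lowest, at 0.306 and 0.296 FPKM in WT and at 1.20 and 1.13 FPKM in anti-Act1. Plau for Plaur, the ratio of urokinase to its receptor, was 0.512 and 0.522 in WT and 0.216 and 0.246 in anti-Act1.

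**Figure D4:**
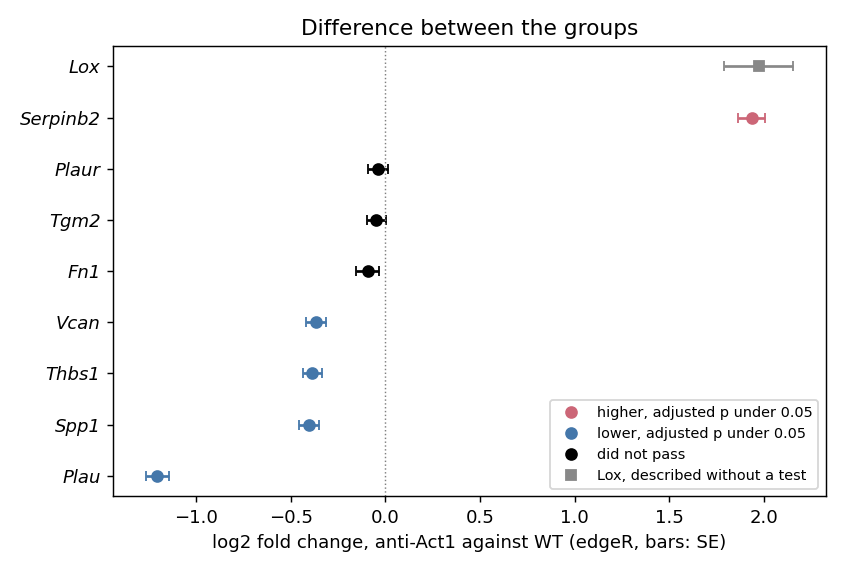
Log2 fold change, anti-Act1 against WT, of the 9 genes with the SE from edgeR as bars; red is higher and blue lower at an adjusted p under 0.05, black did not pass and the grey square is Lox, which is described without a test. Serpinb2 is at 1.93 and Plau at -1.21, and Plaur, Tgm2 and Fn1 lie within 0.1 of 0.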

How the data were processed

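RNA from 4 macrophage samples was sequenced, 2 per genotype. The authors deposited whole counts of reads per gene without normalization, and FPKM values, each a count divided by gene length and by the total of its column (14444 of 14444 genes with counts in at least 2 libraries, within a tolerance of 0.001). The submitters' processing notes name Bowtie 0.12.2, HTSeq 0.6.1 and the builds mm10 and mm8, with no role. The study's methods name TopHat, and use of strand in counting is not given in the sources used here. Of the gene names, 27 had become dates and 2 occurred on 2 lines each, none of them a member.

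Counts were tested with edgeR 4.0.16 (R 4.3.3) after filterByExpr and TMM normalization. The model held genotype alone, and its quasi-likelihood F test was two-sided, with Benjamini-Hochberg adjustment over 12494 genes. Alternatives were a block for the replicate number, a minimum of 10 counts per library, omission of the filter or of the composition normalization, DESeq2 1.42.0, edgeR with the size factors of DESeq2, limma 3.58.1 on log2(FPKM + 1) or log2(FPKM + 0.1) with at least 1 FPKM in 2 libraries, the first also without a filter, each library left out in turn and counts thinned to the smallest total. The scripts were tested on simulated data with known changes. The p-values rest on the spread between 2 libraries per genotype, for which edgeR borrows information across genes. They are therefore not a measure of the spread of 1 gene alone. The labels do not state whether the 2 libraries of a genotype came from separate mice. The 2 libraries of a genotype differed by more than sampling noise and were counted as separate. Depth was 55435063 to 75062945 counts per library.

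Members and lists were chosen with earlier results of these data known, and Lox, whose rise chose the members, was given no test. Named besides the members were genes of the LOX and plasminogen lists, in other lists the called genes of at least 1 CPM (at most 4 rises and 4 falls) or of at least 50 FPKM, the 5 genes closest to Lox, markers, Traf3ip2 and Ddx3y; some genes that this rule allows are left out. Adamts14, Adamts15 and Lama3 fall outside it and were named after their values were seen. Gene positions are from GENCODE on GRCm38 (mm10), matched by symbol. Upstream sequences from RefSeq (GRCm38.p6) were matched by symbol for 4 of the 9 members.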

Additional observations from a re-analysis of the deposited data

How the results depend on the processing

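The calls of the members held in all 14 alternatives run: Serpinb2 was higher and Plau, Spp1, Thbs1 and Vcan were lower, with adjusted p-values up to 0.0447 (Thbs1, limma without a filter), and Fn1, Plaur and Tgm2 did not pass in any. The count of all genes called, 2586, was 1091 when limma was run on all log2(FPKM + 1) values with no filter, and 1671 to 2543 when each library was left out. Leaving out anti-Act1 replicate 2 gave 1671 and leaving out anti-Act1 replicate 1 gave 1712, fits in which the lone library is assumed to vary like the others. The genes of the related lists called higher and lower, 34 and 19, were 15 and 12 with limma without a filter. The cause was not tested. With the replicate number as a block, 2406 genes were called, and among members 1 higher and 4 lower. The labels do not say what same-numbered libraries share beyond the number. Their deviations from the group means correlated at -0.03 over 12494 genes. With 2 libraries per genotype this cannot tell whether they shared a batch. No fold change of a member, or of the list genes given a fold change in the text, reversed in the alternatives run. The 2 libraries per genotype limit the precision, and Plg and Plat, at a few counts, are too low to compare at this depth.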
